A study of Equus caballus with 15 samples.

Results

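Membrane-spanning 4-domains subfamily A (MS4A) genes encode small proteins of the leukocyte surface that cross the membrane several times and associate with other immune receptors. They lie side by side in a cluster on a mammalian chromosome, and cell types of the blood differ in which of them they use. MS4A1 encodes CD20 of B cells and MS4A2 a chain of the high affinity IgE receptor of mast cells, whereas MS4A4A, MS4A6A and MS4A7 are used by monocytes and macrophages.

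ENSECAG00000017042 and ENSECAG00000038794 are 2 of the 16932 genes listed for equine monocyte-derived macrophages. They carry no symbol in the listing. The gene descriptions that the study used name them membrane-spanning 4-domains subfamily A member 6A and member 4A, respectively. Both were chosen because their CPM (the reads of a gene scaled to the same total in each library) was low with PRP lysate and with ACS, so their values in these conditions against IL-1ß alone are a description, without a test. No sequence of either gene was used here.

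Equine blood monocytes became macrophages in 5 days of culture with M-CSF (30 ng/ml), and RNA of 5 conditions was sequenced in 3 libraries each. Macrophages were left untreated, received IL-1ß at 10 ng/ml, or received the same IL-1ß together with an orthobiologic therapy (OT) as 25% of the medium for 24 h. The OTs were MSC-CM, which is medium conditioned by mesenchymal stromal cells of bone marrow, PRP lysate, made by lysing plasma rich in platelets, and ACS (autologous conditioned serum), in which incubated blood has gathered cytokine antagonists. OTs came from 3 donor horses and the macrophages from other horses, so each OT was foreign to the cells. The OT libraries replicate the product, whereas the paper calls the IL-1ß and the untreated libraries technical replicates, and p-values against those measure the spread between libraries only. The paper adds a wash and further culture before RNA collection, whereas the sample descriptions collect the cells after the wash.

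Libraries held 28410735 to 47894069 reads on genes. Over all genes IL-1ß replicate 3 stood apart on the first principal component (-103), followed by PRP lysate replicate 1 (-51.7), while the other 13 libraries lay between -20.7 and 26.6. Log2 fold changes of the pair that rest on them are given with and without them. The 9 macrophage markers listed were all tested, with a median difference from IL-1ß alone of -1.08 (log2) under PRP lysate and -0.41 under ACS, where all genes tested had medians of 0.11 and 0.13.

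Positions are those of the EquCab3.0 build on chromosome 12. ENSECAG00000017042 spans 11708 bases, from 23505138 to 23516845. ENSECAG00000038794 begins 14947 bases further on and spans 166169 bases, from 23531793 to 23697961. The listed gene ENSECAG00000017092 overlaps the far end of ENSECAG00000038794 over 72765 bases, but it had a read in only 1 library, ACS replicate 2, with 2 reads. Exons, introns and strand were not used here.

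ENSECAG00000017042 (member 6A) was expressed at 15.6 CPM or above in untreated, IL-1ß and MSC-CM treated macrophages and was close to absent with PRP lysate. Its CPM in the untreated libraries was 40.3, 29.5 and 15.6, in replicate order. With IL-1ß alone it was 36.9, 44.1 and 42.8 CPM, and with MSC-CM 30.6, 20.7 and 44.2 CPM. These conditions overlapped each other. With PRP lysate the gene was at 0.564, 1.00 and 0.317 CPM, from 21, 42 and 9 reads. With ACS it was at 5.45, 4.21 and 2.82 CPM, from 200, 160 and 135 reads. The ACS libraries all lay above the PRP lysate libraries and below every untreated, IL-1ß and MSC-CM library.

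The mean of ENSECAG00000017042 was 41.3 ± 3.84 CPM (SD, n = 3) with IL-1ß alone and 0.628 ± 0.348 CPM with PRP lysate, a ratio of 65.7. With ACS the mean was 4.16 ± 1.32 CPM, and IL-1ß alone was higher by a ratio of 9.92. The lowest IL-1ß library exceeded the highest PRP lysate library 36.8-fold and the highest ACS library 6.77-fold.

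ENSECAG00000038794 (member 4A) showed a like order of conditions. It was at 29.5, 19.99 and 14.5 CPM in the untreated libraries, at 35.2, 38.6 and 39.1 CPM with IL-1ß alone, and at 20.6, 14.9 and 36.8 CPM with MSC-CM. With PRP lysate it was at 0.430, 1.34 and 0.845 CPM, from 16, 56 and 24 reads, and with ACS at 2.45, 2.16 and 1.40 CPM, from 90, 82 and 67 reads. The ACS libraries again lay above the PRP lysate libraries, the nearest pair being 1.40 and 1.34 CPM. Means were 37.7 ± 2.15 CPM with IL-1ß alone, 0.871 ± 0.455 CPM with PRP lysate and 2.004 ± 0.545 CPM with ACS (SD, n = 3). IL-1ß alone thus exceeded PRP lysate by a ratio of 43.2 and ACS by a ratio of 18.8.

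**Figure D1:**
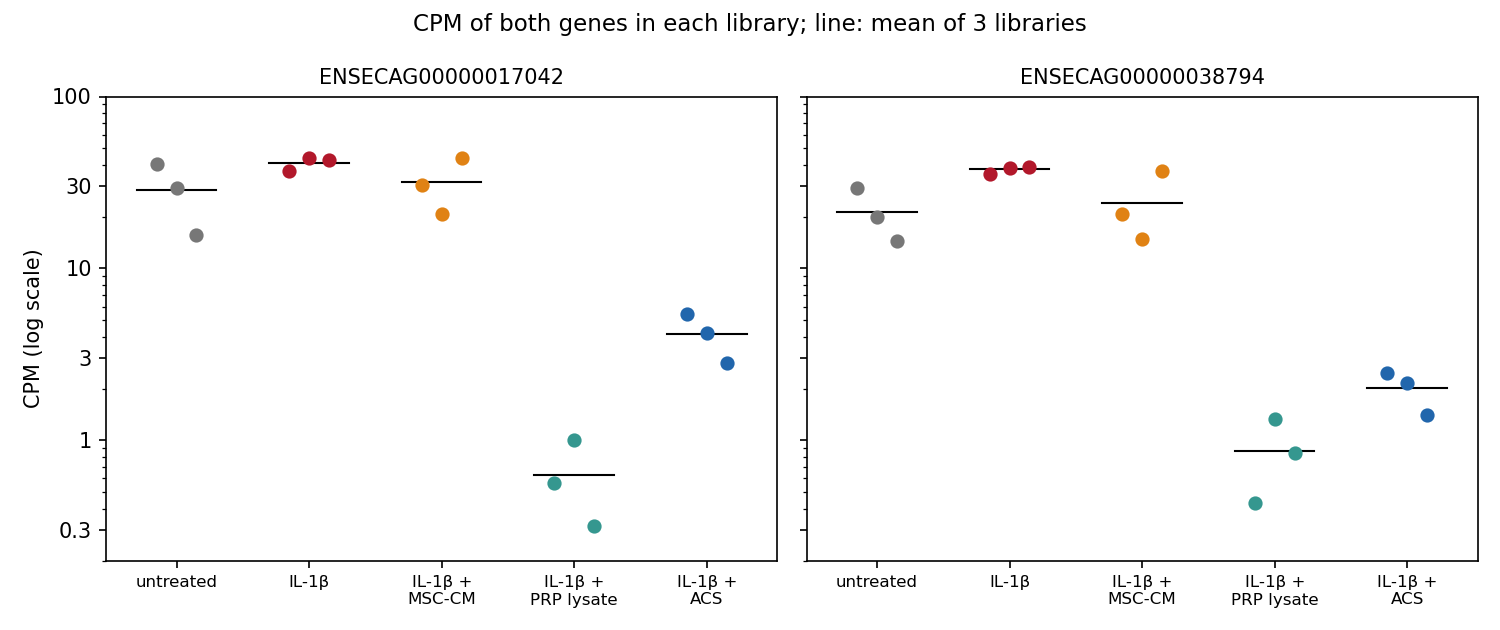
CPM (log axis) of ENSECAG00000017042 (left) and ENSECAG00000038794 (right) in each of the 15 libraries by condition, with points for libraries and lines for the mean of 3 libraries. PRP lysate libraries lie at 1.34 CPM or below and ACS libraries at 5.45 CPM or below, under all untreated, IL-1ß and MSC-CM libraries.

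On the log2(CPM + 1) scale used for the tests, the fold changes against IL-1ß alone were -4.72 with PRP lysate and -3.06 with ACS for ENSECAG00000017042. For ENSECAG00000038794 they were -4.40 and -3.70. Without IL-1ß replicate 3 the values were -4.69 and -3.03 for ENSECAG00000017042 and -4.37 and -3.67 for ENSECAG00000038794. Without PRP lysate replicate 1 the PRP lysate values were -4.70 and -4.22. Among the 11628 genes tested (those averaging 1 CPM or more) these were the 2nd and 3rd largest falls with PRP lysate, behind CD163. With ACS ENSECAG00000038794 had the largest fall and ENSECAG00000017042 the 3rd largest, with CD163 between them. A gene was called changed where limma gave an adjusted p of 0.05 or less and the change was 2-fold or more. Genes called lower made up 2.02% of those tested with PRP lysate and 0.98% with ACS, and the genes were chosen from these comparisons, so nothing is read from their rank.

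Levels with PRP lysate and ACS were also below those of untreated macrophages. In ENSECAG00000017042 the untreated mean, 28.5 ± 12.4 CPM, exceeded PRP lysate by a ratio of 45.3 and ACS by a ratio of 6.84. In ENSECAG00000038794 the untreated mean of 21.3 ± 7.58 CPM exceeded them by ratios of 24.5 and 10.6. Against MSC-CM the ratios were 50.6 and 7.64 for ENSECAG00000017042 and 27.7 and 12.02 for ENSECAG00000038794. Every PRP lysate and every ACS library lay below every untreated and every MSC-CM library for both genes. Of all genes tested, 8.41% had PRP lysate wholly below untreated, 10.0% ACS below untreated, 12.1% PRP lysate below MSC-CM and 22.2% ACS below MSC-CM. The corresponding shares against IL-1ß alone were 6.47% for PRP lysate and 11.2% for ACS. PRP lysate and ACS libraries took part in the choice of the genes, so these values are a description as well.

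Neither gene was called for IL-1ß alone. Against untreated macrophages the log2 fold change was 0.61 for ENSECAG00000017042 (95% interval -0.12 to 1.35, limma adjusted p = 0.456). ENSECAG00000038794 had 0.84 (95% interval 0.16 to 1.53, limma adjusted p = 0.285). Of all genes tested, 0.292% were called in this comparison. Each interval reaches past a 2-fold rise. Without IL-1ß replicate 3 the values were 0.59 and 0.82, and without untreated replicate 3, the lowest untreated library, they were 0.25 and 0.61. The IL-1ß libraries were the reference from which the genes were chosen as low with PRP lysate and ACS, so high IL-1ß values favoured the choice and these tests are not independent of it.

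MSC-CM, in contrast to the blood products, left both genes at 14.9 CPM or above. Against IL-1ß alone the log2 fold changes were -0.43 (95% interval -1.16 to 0.31) for ENSECAG00000017042 and -0.72 (95% interval -1.41 to -0.03) for ENSECAG00000038794, with a limma adjusted p of 0.705 for both, and these tests use the same IL-1ß libraries. Without IL-1ß replicate 3 the values were -0.40 and -0.69, without MSC-CM replicate 2 they were -0.16 and -0.43, and without MSC-CM replicate 3 they were -0.69 and -1.06. In this comparison 0 genes were called by limma, 42 passed at an unadjusted p with a 2-fold change and DESeq2 called 2. Against untreated macrophages, a comparison that shares no library with the choice of the genes, the log2 fold changes were 0.19 (95% interval -0.55 to 0.92, limma adjusted p = 0.891) and 0.13 (95% interval -0.56 to 0.82, limma adjusted p = 0.926). Of all genes tested 0.662% were called there. The sign of both turned when MSC-CM replicate 3, the highest MSC-CM library for both genes, or untreated replicate 3, the lowest untreated one, was left out.

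PRP lysate and ACS were also set beside each other. Both sets of libraries took part in the choice of the genes, so these values are a description. ENSECAG00000017042 had a log2 fold change of 1.65 with ACS against PRP lysate (standard error 0.340), and ENSECAG00000038794 had 0.70. Each ACS library lay above each PRP lysate library for both genes, as in 8.97% of all genes tested. Without PRP lysate replicate 1 the values were 1.64 and 0.52. With a pseudocount of 0.1 the value of ENSECAG00000017042 was 2.61, with DESeq2 2.67 and with edgeR 2.66. ENSECAG00000038794 had 1.195, 1.18 and 1.17 in the same order.

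The CPM of one gene over that of the other, within a library, gives the balance between them without the scaling of the library. This ratio of ENSECAG00000017042 to ENSECAG00000038794 was 1.05, 1.14 and 1.09 with IL-1ß alone and 1.37, 1.48 and 1.07 in untreated macrophages. With MSC-CM it was 1.49, 1.39 and 1.201. It was 2.22, 1.95 and 2.01 with ACS, above all other libraries, and 1.31, 0.750 and 0.375 with PRP lysate. ACS libraries thus held relatively more of ENSECAG00000017042, whereas the PRP lysate ratios rest on 9 to 56 reads per gene and spread on both sides of 1. CPM is not divided by gene length, so the ratio compares libraries and not the abundance of one transcript with that of the other.

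**Figure D2:**
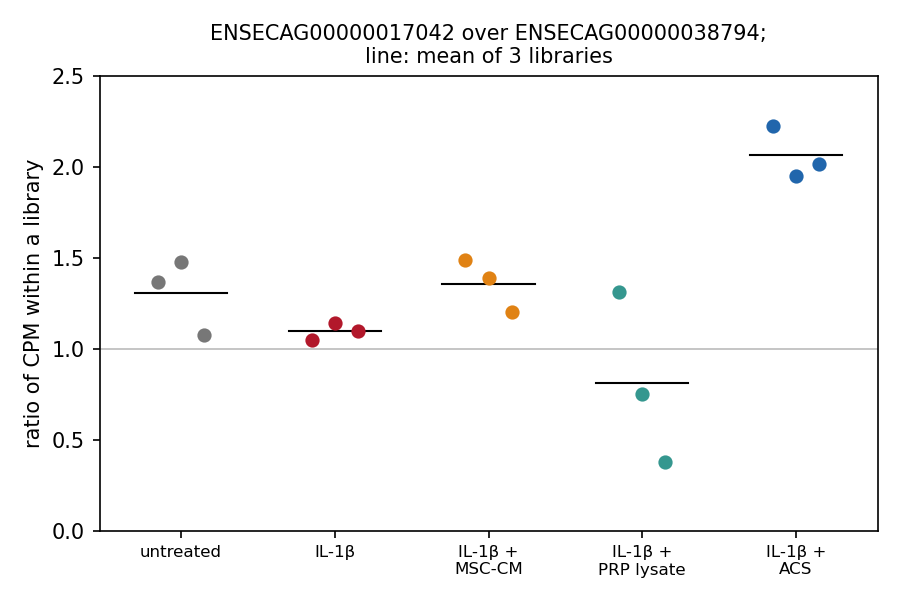
Ratio of the CPM of ENSECAG00000017042 to that of ENSECAG00000038794 within each library (linear axis from 0), by condition, with points for libraries and lines for the mean of 3 libraries. ACS libraries lie from 1.95 to 2.22 and all other libraries at 1.49 or below.

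The 11 other listed genes taken as neighbours were the 5 nearest on each side and ENSECAG00000017092. Of these, 5 had a mean of at least 1 CPM and were tested. TCN1, which encodes a vitamin B12 binding protein and lies 170004 bases before the pair, was the 1 gene called, and it moved the other way. Its CPM was 44.9, 63.5 and 34.4 with IL-1ß alone, 90.2, 175 and 153 with PRP lysate, and 130.3, 137 and 182 with ACS. All libraries with a blood product thus lay above all those with IL-1ß alone. How many of all genes tested separated in this way was not counted, so nothing is read from it. The log2 fold change of TCN1 was 1.52 with PRP lysate (standard error 0.317, limma adjusted p = 0.0137) and 1.66 with ACS (standard error 0.317, limma adjusted p = 0.0134). Genes called higher made up 1.07% of those tested with PRP lysate and 1.23% with ACS. The call was lost without PRP lysate replicate 2 (limma adjusted p = 0.0656) or 3 (0.0621), and without ACS replicate 2 (limma adjusted p = 0.0523) or 3 (0.0705), and in fits of the 2 conditions only (0.161 and 0.0657). With the replicate number as a block the PRP lysate value had a limma adjusted p of 0.0520.

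MS4A7, the nearest tested gene on the other side and a macrophage gene of the same family, begins 71098 bases after the pair. It was at 58.9, 53.1 and 42.5 CPM with IL-1ß alone, at 31.6, 93.9 and 57.4 CPM with PRP lysate and at 76.9, 46.9 and 60.4 CPM with ACS. The conditions overlapped. Its log2 fold change was 0.12 with PRP lysate (95% interval -0.58 to 0.81, limma adjusted p = 0.875) and 0.23 with ACS (95% interval -0.46 to 0.93, limma adjusted p = 0.628). The sign of the PRP lysate value turned without PRP lysate replicate 2 (-0.25) or IL-1ß replicate 3 (-0.01). Neither 95% interval reaches a 2-fold fall.

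MS4A1 was at 4.36, 4.94 and 2.90 CPM with IL-1ß alone, at 1.80, 1.48 and 2.85 CPM with PRP lysate and at 3.08, 1.98 and 2.86 CPM with ACS. The PRP lysate libraries were the lower ones, with a log2 fold change of -0.74 (limma adjusted p = 0.115), which passed with DESeq2 alone among the alternatives run (-1.08, adjusted p = 0.0181). With ACS it was -0.47 (limma adjusted p = 0.270). On the far side of TCN1, STX3, a membrane fusion protein, had log2 fold changes of 0.55 with PRP lysate (limma adjusted p = 0.315) and 0.99 with ACS (limma adjusted p = 0.0680). The latter passed without IL-1ß replicate 1 (1.26, limma adjusted p = 0.0178). MRPL16, a mitochondrial ribosomal protein gene, had 0.01 and 0.15, and both turned sign under some alternatives.

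**Figure D3:**
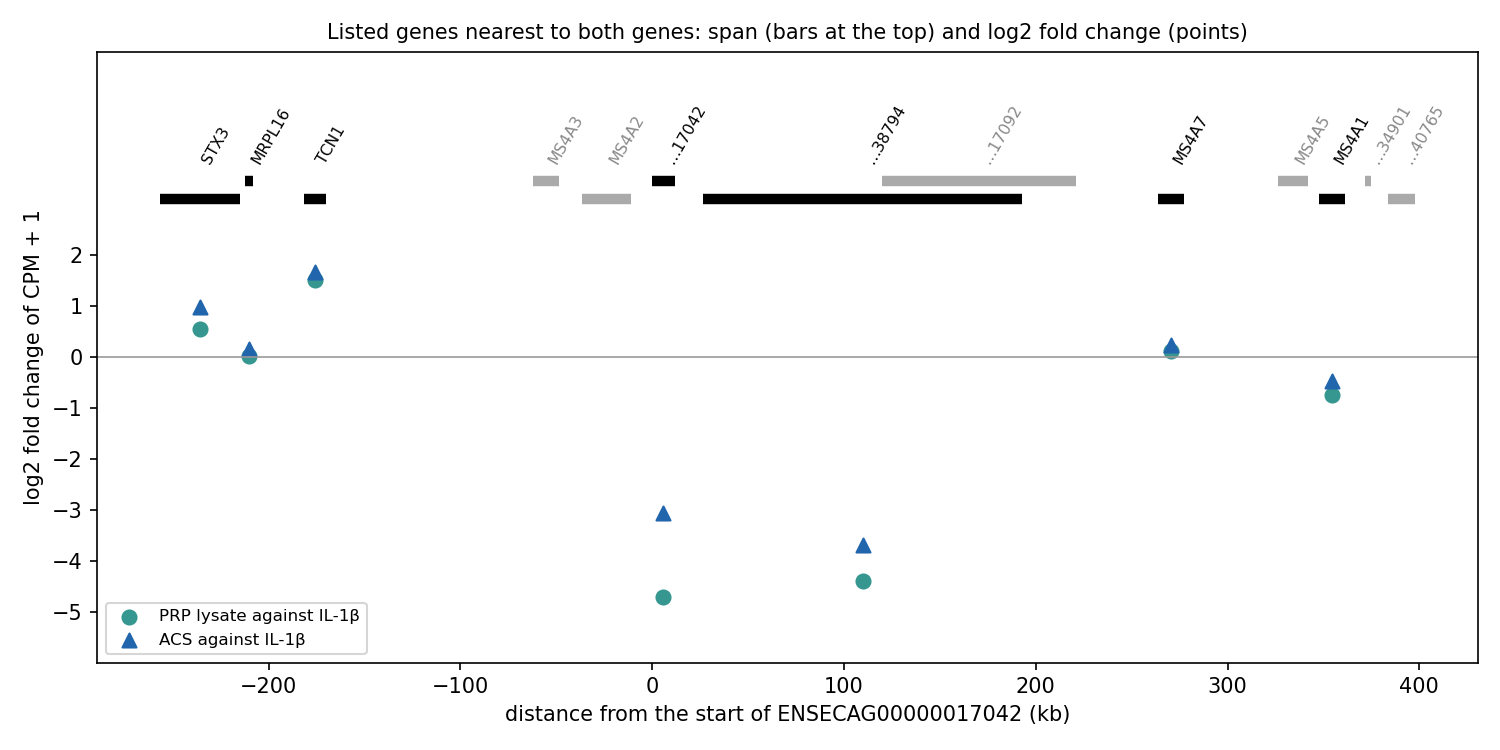
Listed genes around the pair on a horizontal axis of distance (kb) from the start of ENSECAG00000017042, with bars for their spans (black where tested, grey where too low to test, Ensembl identifiers shortened to their last 5 digits) and points for the log2 fold change of CPM + 1 with PRP lysate (circles) and ACS (triangles) against IL-1ß alone. The pair lies between -3.06 and -4.72, and the tested neighbours lie between -0.74 and 1.66.

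**Figure D4:**
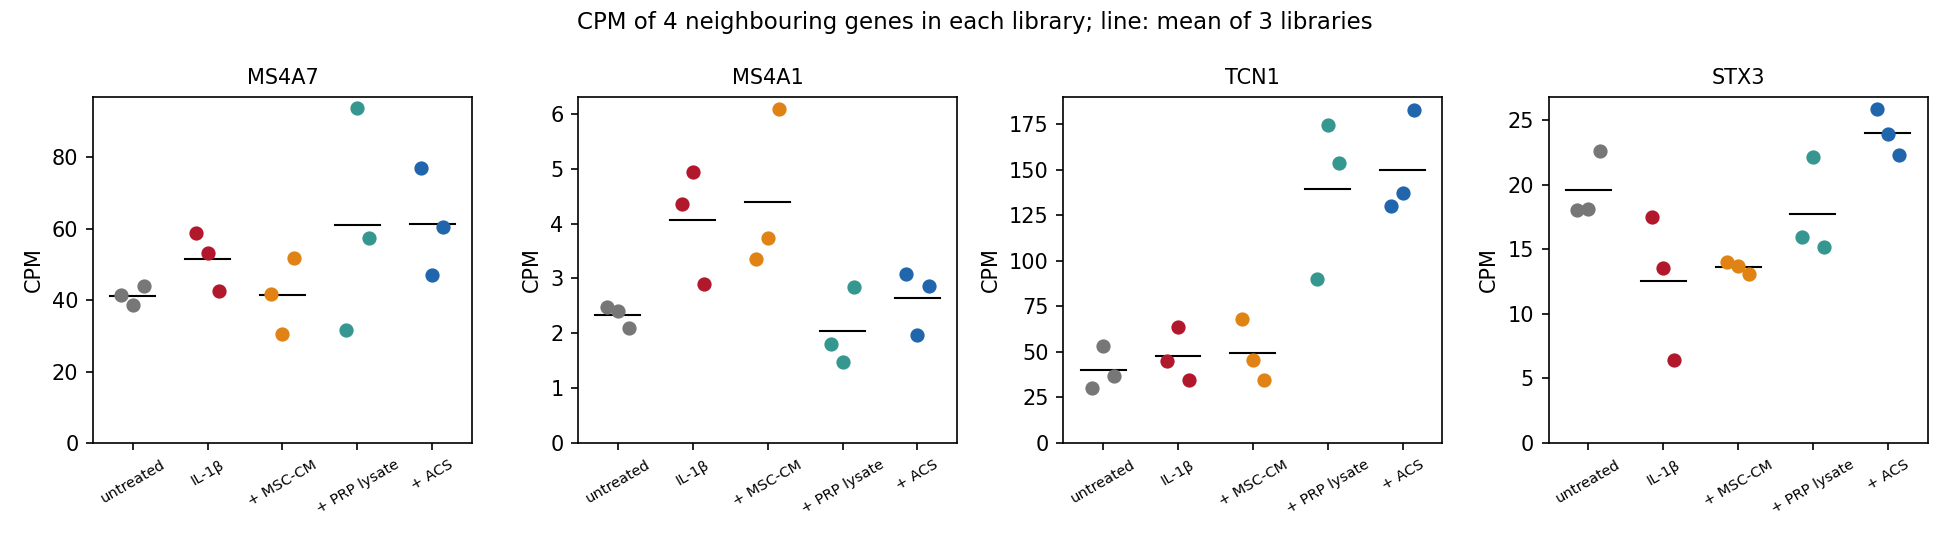
CPM (linear axis from 0) of MS4A7, MS4A1, TCN1 and STX3 in each of the 15 libraries by condition, with points for libraries and lines for the mean of 3 libraries. TCN1 lies at 90.2 CPM or above with PRP lysate and ACS and at 67.9 CPM or below elsewhere, and MS4A7 overlaps across conditions.

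MS4A family symbols were given to 7 listed genes, all on this chromosome, of which MS4A7 and MS4A1 were tested and 0 were called in either comparison. Their median log2 fold change was -0.31 with PRP lysate and -0.12 with ACS, against 0.11 and 0.13 over all genes tested. MS4A2 was between 0 and 1.46 CPM in all libraries. MS4A3, MS4A5, MS4A13 and MS4A15 had means under 0.05 CPM over all libraries, as had the right hand neighbours ENSECAG00000034901 and ENSECAG00000040765. The 7 symbols are also on this chromosome in the RefSeq listing, which is for another assembly than that of the files. That listing has 6 protein-coding genes, 1 pseudogene and 1 long noncoding RNA between MS4A2 and MS4A7, none with a family symbol, where the files list 3 genes. Genes of one family can share near-identical stretches, and the strand setting of the counting is not stated, so how reads were divided among the pair and their relatives is uncertain.

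The genes whose log2(CPM + 1) followed the pair most closely over the 15 libraries were found by Pearson correlation, as a description. For ENSECAG00000017042 the highest values were those of ENSECAG00000019222 (r = 0.984), ENSECAG00000038794 (0.982), the folate enzyme gene ALDH1L1 (0.980), the membrane scaffold gene MPP1 (0.979) and CD163 (0.978). For ENSECAG00000038794 they were those of RNASE6, an antimicrobial ribonuclease (0.982), ENSECAG00000017042 (0.982), ENSECAG00000028530 (0.981), ENSECAG00000006663 (0.976) and AOAH, an enzyme that inactivates endotoxin (0.976). The libraries share conditions and the genes follow the same steps between them. None of these genes other than the pair lies on chromosome 12. CD163 had log2 fold changes of -5.503 with PRP lysate and -3.12 with ACS, beside -4.72 and -3.06 for ENSECAG00000017042. RNASE6 was at 65.7 ± 4.95 CPM with IL-1ß alone, 6.67 ± 2.73 CPM with PRP lysate and 10.5 ± 2.77 CPM with ACS (SD, n = 3). AOAH was at 294 ± 49.6, 74.2 ± 9.66 and 107.2 ± 19.8 CPM, and MPP1 at 206 ± 16.7, 85.0 ± 11.3 and 109 ± 8.57 CPM.

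MS4A4A is known as a marker of alternatively activated macrophages, so a list of 28 genes of such cells was set beside the pair. Of its 17 tested genes 5 were called lower with PRP lysate and 0 higher, and 3 were called lower with ACS and 0 higher, where genes called lower made up 2.02% and 0.98% of all genes tested. The median log2 fold change of the list was -0.81 with PRP lysate and -0.42 with ACS, against 0.11 and 0.13 over all genes tested. The 9 general macrophage markers had medians of -1.08 and -0.41, with 3 and 1 called lower. A lower median was thus not particular to the list. Leaving out 1 library at a time gave 5 to 7 genes of the list called lower with PRP lysate and 1 to 4 with ACS. The ACS count was down to 1 without any 1 of the ACS libraries or IL-1ß replicate 2. Against untreated macrophages 4 of the 17 were called lower with PRP lysate (CD163, MERTK, C1QC and TGFBI), beside 1.33% of all genes tested. With ACS limma called 0 lower against untreated macrophages, where 2 passed at an unadjusted p with a 2-fold change, DESeq2 called 2 and edgeR 0, beside 0.224% of all genes by limma. Against MSC-CM the same 4 were called lower with PRP lysate and 2 with ACS (CD163 and MERTK), beside 1.81% and 0.636% of all genes. The ACS count against MSC-CM was 1 in each fit without 1 library.

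CD163, the haemoglobin scavenger receptor, was at 563 ± 173 CPM with IL-1ß alone, 11.4 ± 3.48 CPM with PRP lysate and 64.6 ± 25.0 CPM with ACS (SD, n = 3). Its log2 fold changes were -5.503 (limma adjusted p = 9.04e-06) and -3.12 (limma adjusted p = 0.00149), and both passed under each alternative run. CD163 was also called higher with ACS than with PRP lysate (2.39, limma adjusted p = 0.0347), where 0.0946% of all genes tested were called, a call lost in 5 of the 6 fits without 1 library, all but that without ACS replicate 3 (limma adjusted p up to 0.237), as well as without the filter on low values and in the fit of the 2 conditions only. TGFBI, a secreted matrix protein gene, fell from 2175 ± 197 CPM to 235 ± 126 CPM with PRP lysate (-3.36, limma adjusted p = 0.000326). With ACS it was at 650 ± 153 CPM (-1.76, limma adjusted p = 0.0301), a call that was lost in 5 of the 6 fits without 1 library, all but that without IL-1ß replicate 1, and without the filter on low values.

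MERTK, a receptor for apoptotic cells, was at 53.5 ± 10.8 CPM with IL-1ß alone and 7.45 ± 1.89 CPM with PRP lysate (-2.69, limma adjusted p = 1.71e-05). With ACS it was at 26.8 ± 1.29 CPM, a log2 fold change of -0.95 that was under 2-fold (limma adjusted p = 0.0273). MERTK was also called higher with ACS than with PRP lysate (1.74, limma adjusted p = 0.00386). It and CD163 were the 2 genes of the list called there, beside 0.0946% of all genes tested. Alternatives for this MERTK call were not examined. STAB1, a scavenger receptor, had -2.66 with PRP lysate (limma adjusted p = 0.0103), a call lost in the fit of the 2 conditions only (0.171) and with the replicate block (0.0656). With ACS it had -2.18 (limma adjusted p = 0.0401), which was lost in the same fits as that of TGFBI, with a pseudocount of 0.1 and in the fit of the 2 conditions only. C1QC, a complement subunit, completed the 5 with -1.89 (limma adjusted p = 0.000669), a call lost in the fit of the 2 conditions only (0.0988).

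Not all of the list moved with the pair. TREM2, a lipid receptor of macrophages, was at 70.3 ± 18.3 CPM with IL-1ß alone and 37.4 ± 4.62 CPM with PRP lysate (log2 fold change -0.87, limma adjusted p = 0.0912), and had -0.44 with ACS (limma adjusted p = 0.312). Its signalling partner TYROBP had -0.26 (limma adjusted p = 0.544) and -0.29 (limma adjusted p = 0.341). CLEC7A is not among the genes listed here. Glucocorticoid-induced genes were set beside the pair as well, and of the 8 tested only CEBPD, a transcription factor, was called lower, with -2.67 (limma adjusted p = 9.87e-06) and -2.40 (limma adjusted p = 7.72e-05), where 2.02% and 0.98% of all genes were called lower. The medians of that list were 0.15 and 0.33.

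**Figure D5:**
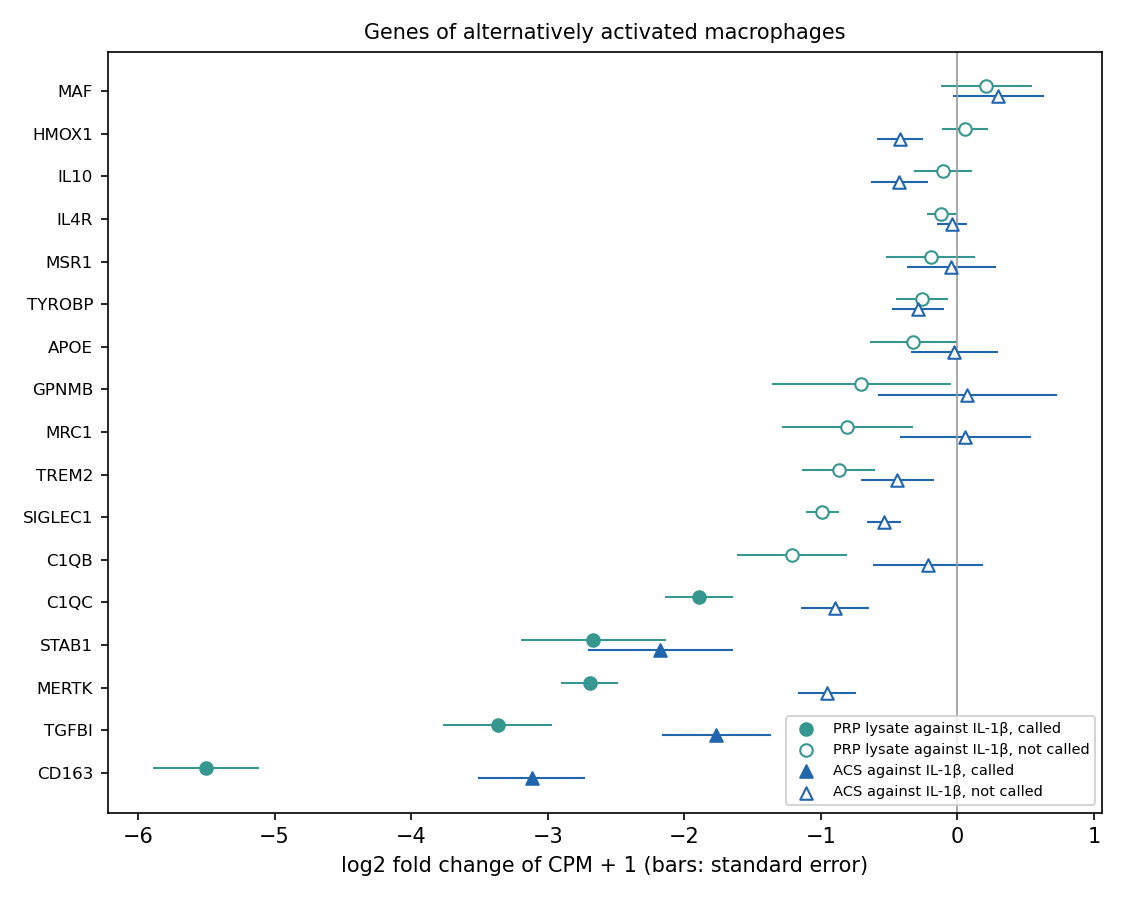
Log2 fold change of CPM + 1 (bars give the standard error) of the 17 tested genes of alternatively activated macrophages with PRP lysate (circles) and ACS (triangles) against IL-1ß alone, filled where called. Called genes run from -1.89 to -5.503 with PRP lysate and from -1.76 to -3.12 with ACS, and TYROBP, IL4R and MAF lie near 0.

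In bulk RNA fewer cells of a type and less RNA per cell cannot be told apart. The summed CPM of the 9 macrophage markers listed ranged from 2558 to 2898 with IL-1ß alone, 1978 to 2668 with PRP lysate and 2347 to 2627 with ACS. PRP lysate had 3 of the 9 called lower (LYZ, AIF1 and MARCO) and ACS had 1 (AIF1), where genes called lower made up 2.02% and 0.98% of all genes tested. With PRP lysate the log2 fold changes of the 9 ran from -1.97 for ADGRE1, which was not called (limma adjusted p = 0.0768), to 0.01 for CD68, and CSF1R, the M-CSF receptor, had -1.08 (limma adjusted p = 0.0914). CD68 alone made up 57.7% to 74.0% of the sum in these 9 libraries. Without CD68 the sum was 1082 to 1156 CPM with IL-1ß alone, 602 to 739 CPM with PRP lysate and 741 to 943 CPM with ACS. Per 100 CPM of all these markers ENSECAG00000017042 had 1.32 to 1.67 CPM with IL-1ß alone, 0.0137 to 0.0376 with PRP lysate and 0.120 to 0.208 with ACS. ENSECAG00000038794 had 1.26 to 1.53, 0.0217 to 0.0502 and 0.0596 to 0.0935. Per 100 CPM of the markers without CD68, a sum added after the data were seen, ENSECAG00000017042 had 3.31 to 3.96, 0.0526 to 0.136 and 0.381 to 0.578 CPM in the same order, and ENSECAG00000038794 had 3.16 to 3.62, 0.0674 to 0.181 and 0.189 to 0.260 CPM. The order of the conditions was as in the CPM with either sum, and the part of the lower macrophage markers in the values of the pair was not tested.

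Markers of other blood cells were measured beside the pair. The sum of T cell markers was 701 to 1389 CPM with IL-1ß alone, 619 to 1441 CPM with PRP lysate and 597 to 758 CPM with ACS, and 0 of 5 were called. B cell markers summed to 27.3 to 48.6, 12.2 to 30.2 and 14.1 to 20.1 CPM, with 0 of 4 tested called. The sum of mast cell and basophil markers was lower, at 17.9 to 27.1 CPM with IL-1ß alone against 5.74 to 10.7 CPM with PRP lysate and 10.1 to 13.5 CPM with ACS. Of the 3 tested FCER1A (both) and HDC (PRP lysate) were called, beside the same 2.02% and 0.98% of all genes. Untreated macrophages had 10.1 to 19.5 CPM of these markers, which overlapped IL-1ß alone, PRP lysate and ACS. The calls of LYZ, MARCO and HDC with PRP lysate and of AIF1 and FCER1A with ACS were each lost in 3 to 5 of the 6 fits without 1 library. Dendritic cell markers summed to 174 to 207 CPM with IL-1ß alone, 159 to 310.2 CPM with PRP lysate and 164 to 343 CPM with ACS, which overlap. Of the 2 tested FLT3 was called lower with PRP lysate (-1.52), whereas CCR7 had 0.15 with PRP lysate and 0.24 with ACS and was not called. The marker calls named here (LYZ, AIF1, MARCO, FCER1A, HDC and FLT3 with PRP lysate, AIF1 and FCER1A with ACS) were each lost in the fit of the 2 conditions only (limma adjusted p from 0.0860 to 0.349). Stromal cell markers summed to 4.05 to 9.56 CPM with IL-1ß alone, 10.2 to 18.6 CPM with PRP lysate, wholly above it, and 8.05 to 19.8 CPM with ACS, and the 1 tested was not called. NK cell markers (93.9 to 267 CPM over all libraries) and platelet markers (0.830 to 4.13 CPM) had 0 called by limma with PRP lysate or ACS, and their sums overlapped between these conditions. The part of these other cells in the values of the pair was not tested.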

How the data were processed

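RNA of 15 libraries of equine macrophages was sequenced by the authors, 3 in each of 5 conditions. Per the paper's methods, reads were trimmed with cutadapt, mapped in Partek Flow (STAR 2.7.3, EquCab3.0) and assigned to genes by HTSeq. The authors deposited CPM, counts scaled to the same total in each library, for 16932 genes. The listed genes held 98.2% to 99.1% of each library's total. Columns were matched to samples by name, and ACS replicates were numbered in the order of the samples. Library values were multiples of one step (99.7% whole, tolerance 0.1 reads), from which whole reads were recovered for DESeq2 1.42.0 and edgeR 4.0.16.

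The main test was limma 3.58.1 (R 4.3.3, trended prior variance) on log2(CPM + 1) of the 11628 genes that averaged 1 CPM or more, with all libraries in 1 model and Benjamini-Hochberg adjustment over all genes tested. Fold changes on this scale understate changes of low genes. Alternatives were RLE and TMM factors, a pseudocount of 0.1, no filter on low values, DESeq2, edgeR's quasi-likelihood test, fits of the 2 conditions only, the replicate number as a block and leaving out each library. Scripts were tested on simulated data. Named genes were the pair, 5 listed genes on each side and those between, MS4A symbols, the 5 most correlated genes of each, and of each list those called with PRP lysate or ACS that changed most (up to 3 a direction), with CLEC7A, TREM2, TYROBP and CD163 in any case. The 28 alternatively activated, 10 glucocorticoid and 8 marker lists, like the pair, were chosen with earlier results of these data known, and support nothing independently. C1QC was named after its value was seen, to complete a count. The result of 1 further gene is not reported here. Gene names of RefSeq were matched by symbol, and the pair matched none by identifier. The depth limits low values, since 1 read was worth 0.0209 to 0.0352 CPM.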

Additional observations from a re-analysis of the deposited data

How the results depend on the processing

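Of 138 alternatives for the pair, those for ACS against PRP lysate left out, 124 kept the direction, the side of the threshold and, for untested values, the size within the spread between libraries. ENSECAG00000017042 with PRP lysate against IL-1ß was -5.94 with a pseudocount of 0.1, -6.12 with DESeq2 and -6.08 with edgeR, and with ACS -3.44 with DESeq2. ENSECAG00000038794 with PRP lysate was -5.39, -5.55 and -5.52 in the same order, and with ACS -4.20, -4.37 and -4.35. By construction a smaller pseudocount shrinks the change of low values less. For ACS against PRP lysate ENSECAG00000017042 had 2.61 with a pseudocount of 0.1 and 2.67 with DESeq2, which describe libraries that took part in the choice. MSC-CM against untreated turned sign without MSC-CM replicate 3 (ENSECAG00000017042 -0.07, ENSECAG00000038794 -0.21) and without untreated replicate 3 (-0.18 and -0.11), and the cause was not tested. Values with 1 library left out ran, for ENSECAG00000017042 and ENSECAG00000038794, from -4.88 to -4.57 and -4.57 to -4.22 with PRP lysate, from -3.24 to -2.86 and -3.81 to -3.55 with ACS, from 1.48 to 1.85 and 0.52 to 0.87 for ACS against PRP lysate, from 0.25 to 0.91 and 0.61 to 1.10 for IL-1ß against untreated, from -0.69 to -0.16 and -1.06 to -0.43 for MSC-CM against IL-1ß, and from -0.18 to 0.48 and -0.21 to 0.41 for MSC-CM against untreated.

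Genes called for IL-1ß against untreated numbered 34 (DESeq2 173, 2 conditions only 0 against 165 at an unadjusted p, 1 library left out 5 to 35). For MSC-CM against IL-1ß they numbered 0 (DESeq2 2, and 0 to 0 with 1 library left out), and against untreated 77 (DESeq2 171, 2 conditions only 189, 1 library left out 10 to 17), where RLE moved the split from 56 higher and 21 lower to 36 and 36. ACS against PRP lysate had 11 (DESeq2 61, 2 conditions only 0 against 103 at an unadjusted p, 1 library left out 5 to 16). PRP lysate against IL-1ß had 359 (DESeq2 694, 2 conditions only 56, 1 library left out 275 to 469), and ACS against IL-1ß 257 (DESeq2 574, 2 conditions only 48, 1 library left out 103 to 705), where RLE moved the split from 143 higher and 114 lower to 123 and 138. Alternatively activated genes called lower with PRP lysate numbered 5 (DESeq2 8, 2 conditions only 3, 1 library left out 5 to 7). With ACS they numbered 3 (1 without the filter, 5 with DESeq2 and 1 to 4 with 1 library left out). Against untreated ACS had 0 (RLE 1, TMM 1, DESeq2 2, 2 conditions only 2, 0 to 1 with 1 library left out), and against MSC-CM 2 (RLE 1, TMM 1, 2 conditions only 4, 1 to 1 with 1 library left out).

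MRPL16 with PRP lysate was -0.082 with RLE, -0.072 with TMM, -0.13 with DESeq2, -0.11 with edgeR, -0.01 without PRP lysate replicate 1, -0.05 without PRP lysate replicate 2 and -0.19 without IL-1ß replicate 1, up to 0.13 without IL-1ß replicate 3. With ACS it was -0.023 with DESeq2, -0.0045 with edgeR and -0.053 without IL-1ß replicate 1, up to 0.26 without IL-1ß replicate 3. MS4A7 with PRP lysate was -0.25 without PRP lysate replicate 2 and -0.01 without IL-1ß replicate 3.

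Replicate numbers were not taken to pair the libraries of the conditions compared. Same-numbered deviations correlated at -0.775 to 0.635 (median 0.319, against -0.201 for other numbers). Both signs occurred in each comparison that used the block, except PRP lysate against MSC-CM. The best match in another condition had the same number in 11 of 36 cases, and throughout for 0 of 12 libraries. Between PRP lysate and MSC-CM, all 3 same-numbered pairs were positive (0.635, 0.255 and 0.419), and the count of alternatively activated genes called lower there was 4 with and without the block. With the replicate block 6 genes were called for IL-1ß against untreated, 5 for MSC-CM against untreated and 197 for PRP lysate against IL-1ß, and no call of the pair changed. The PRP lysate calls of TCN1 (adjusted p = 0.0520), STAB1 (0.0656), LYZ, MARCO, FCER1A and HDC were lost in it. Lists, neighbours and these alternatives for them were chosen after seeing the data. Depth limits the PRP lysate values of the pair, which rest on 9 to 56 reads.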
